A study of Mus musculus with 11 samples.

Results

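The miRNAs of mouse embryonic stem cells that lack DGCR8 were compared with those of cells in which the mutant protein DGCR8 E518K was induced, to ask which miRNAs the mutant restores and which stay near the knockout level. The 6 libraries labelled for these 2 groups were taken from the 11 small RNA libraries of the series. The tables list 1966 mature miRNAs. A count was present somewhere for 1347 of them, and the 730 that passed a filter on low counts were all used. The KO group held 3 libraries of non-transfected cells, genotype DGCR8 -/-, all labelled as clone 261, although the series describes 3 independent clones per condition. The spread between these 3 may therefore be technical. The E518K group held clones 8, 13 and 15, transfected with pSB ET iE-FlagDGCR8-E518K, an inducible vector for the Flag-tagged mutant, and with pCMV(CAT)-SB100X, a plasmid for the Sleeping Beauty transposase; their genotype is labelled E518K/E518K. For reference, 3 clones (10, 12 and 16) with the corresponding wild-type DGCR8 vector were used. All of these cells received 300 ng/mL doxycycline for 48 h, the KO cells included, and were grown without feeder cells in 2i medium with LIF. All share the strain label NBA1-19349. The other 2 libraries of the series, of wild-type clone 10 and E518K clone 8, received no doxycycline. They were part of the fit, and that of E518K clone 8 is described apart. The labels do not state from which cells the transfected clones were derived.

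DGCR8 binds the RNA that the nuclease Drosha cuts. Together they form the microprocessor, which cuts the hairpin of a miRNA out of its long primary transcript in the nucleus; Dicer then cuts the hairpin into the mature miRNA. The change E518K, in an RNA-binding domain of DGCR8, recurs in Wilms tumour, a kidney tumour of childhood. A few hairpins skip this step, such as mirtrons, whose ends are made by splicing of a short intron, and hairpins that start at the cap of a transcript. Embryonic stem cells depend on the microprocessor for most of their miRNAs, above all for clusters whose mature strands share the seed, bases 2 to 8, by which a miRNA finds its targets.

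The mature sequences below, from RefSeq on GRCm38.p6, are those on which the comparison turns, with the seed in capitals. The first 8 belong to the seed families AAAGUGC and AAGUGCU that make up much of the stem cell clusters.
miR-17-5p: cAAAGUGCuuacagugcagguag
miR-20a-5p: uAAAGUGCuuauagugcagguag
miR-20b-5p: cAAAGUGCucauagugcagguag
miR-106a-5p: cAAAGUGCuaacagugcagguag
miR-294-3p: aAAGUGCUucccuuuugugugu
miR-295-3p: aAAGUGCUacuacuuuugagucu
miR-302b-3p: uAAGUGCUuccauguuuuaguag
miR-302d-3p: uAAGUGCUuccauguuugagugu
The next 4 were among the miRNAs with the highest levels or the largest rises in E518K.
miR-183-5p: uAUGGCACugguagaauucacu
miR-182-5p: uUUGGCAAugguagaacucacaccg
miR-92a-3p: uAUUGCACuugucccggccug
miR-363-3p: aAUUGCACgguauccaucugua
The next 4 were raised over KO in wild type and, with TMM scaling, which holds the middle of the miRNAs constant, not called higher than KO in E518K; with another scaling, that by a list of DGCR8-independent miRNAs, all 4 were called higher.
miR-140-3p: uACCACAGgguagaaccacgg
miR-872-5p: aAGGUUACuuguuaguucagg
miR-192-5p: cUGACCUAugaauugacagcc
miR-218-5p: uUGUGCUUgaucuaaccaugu
The last 4 were lower in E518K than in KO with TMM scaling, miR-484 as a member of the DGCR8-independent list and the other 3 as members of the related miR-10 and miR-100 families. With scaling by that list miR-484 was called higher, while miR-10a-5p and miR-100-5p were lower.
miR-484: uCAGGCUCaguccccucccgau
miR-10a-5p: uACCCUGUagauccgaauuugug
miR-100-5p: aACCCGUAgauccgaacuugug
miR-99a-5p: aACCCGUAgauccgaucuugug

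Library depth differed between the groups. Total miRNA counts were 166676 to 208846 in KO, 1050564 to 1797240 in induced E518K and 3394216 to 6128734 in induced wild type. A count of 0 in a KO library allowed a level of up to 12.8 to 18.3 CPM, counts per 1e6 counts, after TMM scaling, which sets libraries against each other by the middle of their log ratios, so that the scaled values of a library need not sum to 1e6. The total amount of miRNA per cell cannot be told apart from depth in these counts, and a fraction of cells without the mutant cannot be told apart from a lower level per cell.

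The composition of the KO and E518K libraries differed in nearly every abundant miRNA. In KO, miR-5099 and miR-1981-5p alone held 52.2% ± 6.52 of the miRNA counts (SD, n = 3 libraries), against 0.919% ± 0.171 in E518K and 0.0639% ± 0.0181 in wild type. The miR-290 cluster, which runs from miR-290a to miR-295 and is abundant in embryonic stem cells, held 0.377% ± 0.247 of the counts in KO, 29.3% ± 3.06 in E518K and 55.4% ± 5.24 in wild type. The miR-183-96-182 cluster held 0.243% ± 0.0607 in KO, 26.1% ± 1.33 in E518K and 6.77% ± 0.314 in wild type. For these shares the KO and E518K libraries did not overlap, and the exact two-sided permutation test gave p = 0.1, the smallest value that 3 against 3 libraries allow. Several members count the same reads: miR-292a-5p and miR-292b-3p, miR-292a-3p and miR-292b-5p, miR-290a-5p and miR-290b-3p, and miR-290a-3p and miR-290b-5p. With such miRNAs counted once, the miR-290 share was 19.3% ± 1.77 in E518K and 0.220% ± 0.136 in KO.

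**Figure D1:**
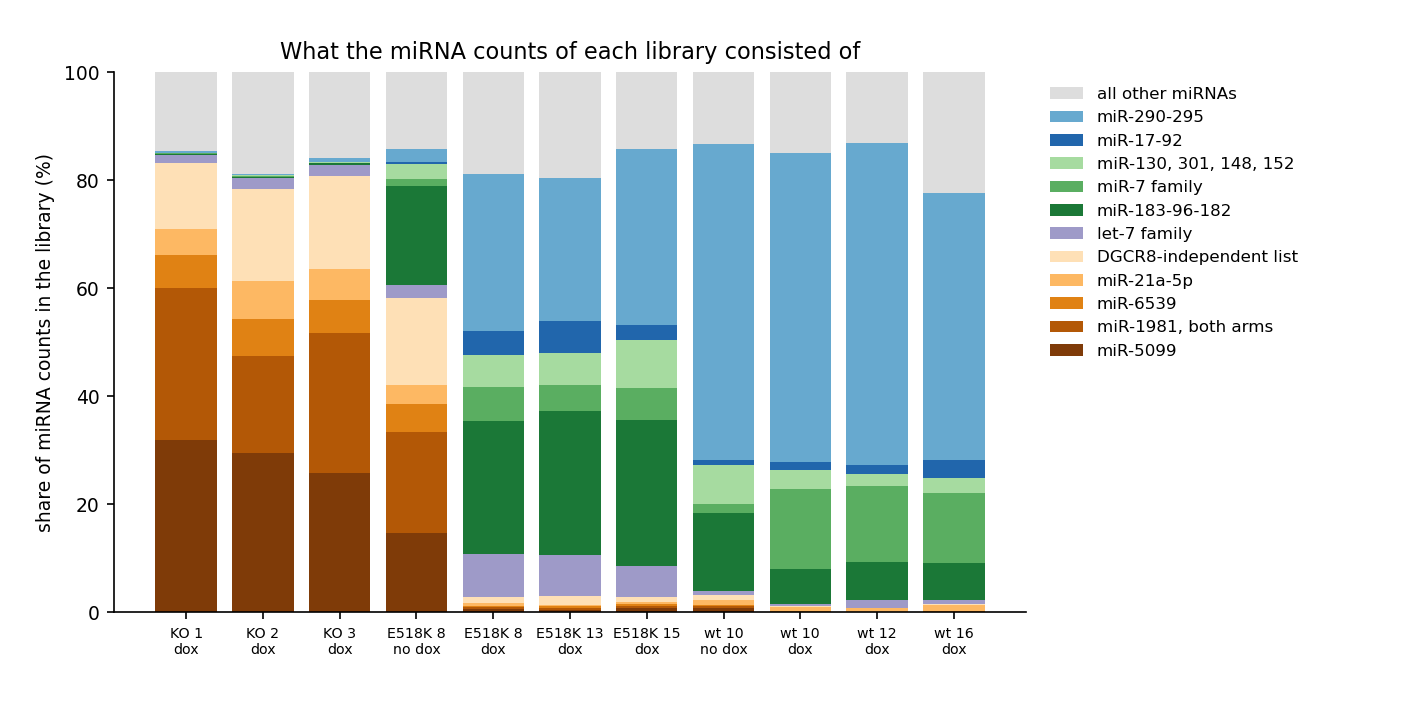
Share of the miRNA counts of each of the 11 libraries (vertical axis, percent) held by single miRNAs and lists (colours), with the libraries on the horizontal axis and dox for doxycycline. In the 3 KO libraries miR-5099 and miR-1981 fill the lower part of the bars, and in the 3 induced E518K libraries the miR-290 and miR-183-96-182 clusters take their place.

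Between induced E518K and KO, 306 of 730 miRNAs were higher in E518K (41.9%) and 191 were lower (26.2%) by edgeR's quasi-likelihood test with Benjamini-Hochberg adjustment at a threshold of 0.05, and 233 passed in neither direction. Called in either direction were 68.1%. Between induced wild type and KO 88.4% were called, 58.4% of all as higher in wild type and 30% as lower, and between E518K and wild type 63.6%. The 3 E518K libraries did not overlap the 3 KO libraries for 493 miRNAs (67.5%). The median change over the 730 was 1.35 on the log2 scale. The KO libraries held no count of 228 tested miRNAs. Those with an E518K mean above the level that a KO zero allows on average were set to the lower bound of their change. The median was then 0.90. The rest of the 228 kept their fitted change, so 0.90 is not itself a lower bound. The share lower was 17.5% of the miRNAs tested without E518K clone 15.

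Direction for the miRNAs called lower depends on what is held constant, and 3 scalings were set beside each other. TMM holds the middle of the miRNAs constant; a second scaling holds constant the sum of a list of hairpins that bypass the microprocessor, here called the DGCR8-independent list (miR-320, miR-484, miR-877, miR-702, miR-1224, miR-1983, miR-1291 and miR-1839); and the last uses the constants that the authors applied in their own RPM values. With library totals alone 250 miRNAs were higher and 249 lower. With the list held constant 412 miRNAs were higher (56.4%) and 30 lower (4.11%), 60.5% in all, and with the authors' constants 380 were higher (52.1%) and 61 lower (8.36%), 60.4% in all. Over the 197 miRNAs with a count in every library the list moved all changes by 2.45 and the authors' constants by 1.77 on the log2 scale relative to TMM. Changes below are by TMM unless another scaling is named.

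**Figure D2:**
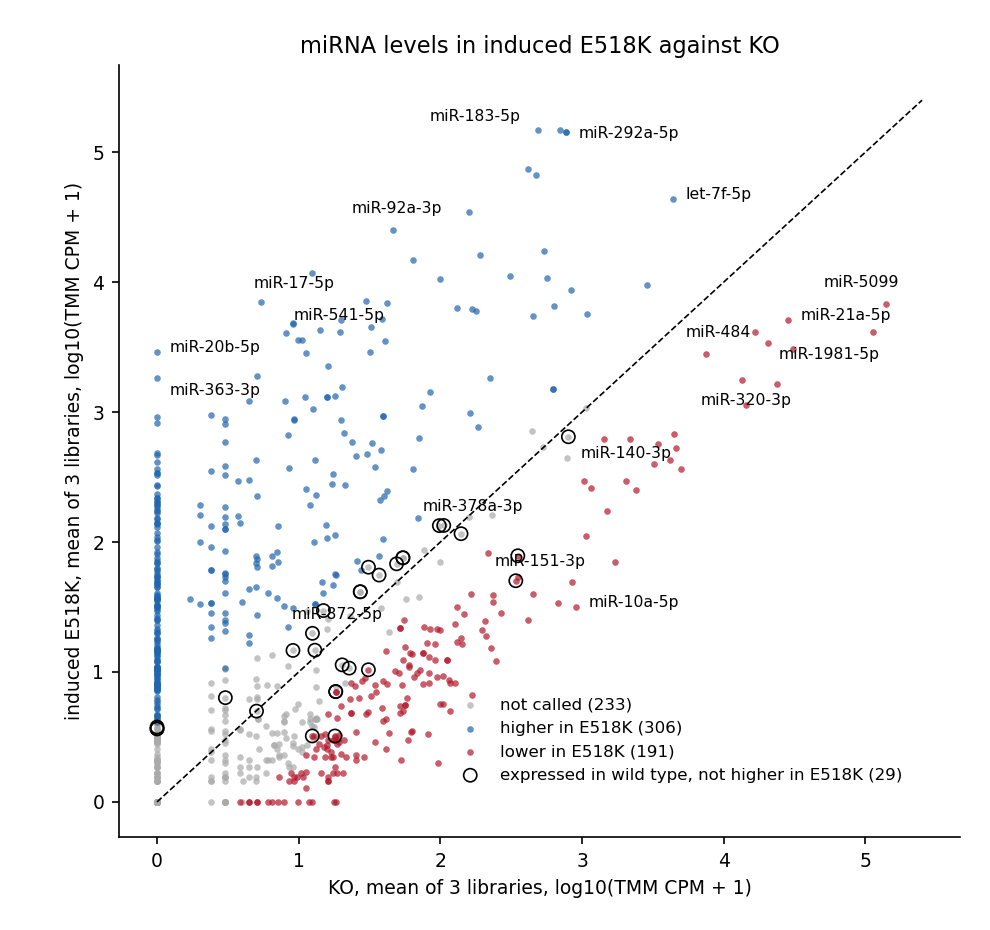
Mean TMM CPM of each of the 730 tested miRNAs in induced E518K (vertical) against KO (horizontal), 3 libraries each, both as log10(CPM + 1), with the dashed line at equal levels. Blue points (306) were called higher and red points (191) lower in E518K by TMM. Rings mark 29 miRNAs at 100 CPM or more in induced wild type, called higher there than in KO but not called higher in E518K by TMM. The column at 0 holds miRNAs without a count in KO.

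The miR-290 cluster, which keeps stem cells cycling, was restored in full number: 18 of 18 tested members were higher in E518K, against 41.9% of all 730. Their median change was 7.35 against 1.35 over all 730 miRNAs (6.95 with the KO zero at its bound). Some of the 18 count the same reads, and 14 remain with such miRNAs counted once. miR-292a-5p stood at 405, 444 and 1453 CPM in KO libraries 1, 2 and 3 and at 141381, 89256 and 201256 CPM in E518K clones 8, 13 and 15 (log2 change 7.55 ± 0.56 SE, adjusted p = 6.7e-35). All 3 clones were far above all 3 KO libraries, clone 13 being the lowest of the clones. miR-295-3p was even across the clones, at 66.1, 45.0 and 79.4 CPM in KO and 14792, 14061 and 15931 CPM in E518K (7.87 ± 0.53, adjusted p = 4e-42). In induced wild type it stood at 14721, 24077 and 18394 CPM, a range that holds clones 8 and 15. miR-294-5p had no count in any KO library and 565, 473 and 404 CPM in E518K, at least 29.3-fold higher than the KO floor.

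Within the cluster the members did not return to wild-type level alike. Of the members, 16 were expressed at 100 CPM or more in induced wild type and higher there than in KO, some counting the same reads. Their median stood at 55.6% of the wild-type level in E518K, and the range ran from 5.35% to 149%. The lowest was miR-293-5p, named here after its values were seen, at 83.2, 51.1 and 159 CPM in KO, 11621, 7965 and 11977 CPM in E518K and 207923, 254804 and 127700.0 CPM in wild type. It rose over KO by 6.76 ± 0.53 and was lower than in wild type by 4.23 on the log2 scale (edgeR adjusted p = 1.7e-17). Its level in E518K was thus beyond the spread of both other groups. In the comparison of E518K with wild type over all miRNAs, 28.2% of the 730 were higher in E518K and 258 lower (35.3%).

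The miR-302 cluster shares the AAGUGCU seed with miR-294 and miR-295 and marks embryonic cells. Of 9 tested members 8 were higher in E518K, against 41.9% of all 730, and 6 had no count in any KO library. Among these 6, miR-302c-5p stood at 6.45 CPM in E518K. That is below the 12.8 to 18.3 CPM that a KO zero allows, so its rise is not established. miR-302b-3p had 0 counts in KO and 473, 422 and 498 CPM in E518K, at least 28.3-fold above the floor, against 861, 1574 and 1144 CPM in wild type. The E518K clones lay below all wild-type clones (log2 difference -1.36, adjusted p = 0.0011). Summed over the 4 tested miRNAs with the seed AAGUGCU that have an entry in the RefSeq sequence table, the level was 92.3 CPM in KO, 22642 CPM in E518K and 26915 CPM in wild type on average.

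The 3 paralogous clusters miR-17-92, miR-106a-363 and miR-106b-25, which promote cell proliferation, were restored too. In the order named, 12 of 12, 9 of 10 and 6 of 6 tested members were higher in E518K, and none was lower. Over all 730, 41.9% were higher and 26.2% lower. miR-18b-3p of the miR-106a-363 cluster had no KO count and 3.64 CPM in E518K, below what a KO zero allows, so its rise is not established. miR-17-5p stood at 4.27, 3.00 and 6.10 CPM in KO and at 6791, 9647 and 4548 CPM in E518K (10.60 ± 0.63, adjusted p = 1.5e-51). By TMM the clones also exceeded the wild-type libraries, at 1866, 3374 and 3813 CPM, without overlap (log2 difference 1.21, adjusted p = 0.0028). With the DGCR8-independent list held constant few miRNAs were higher in E518K than in wild type, as given below. miR-92a-3p stood at 32.0, 18.02 and 85.5 CPM in KO and at 30004, 21359 and 24721 CPM in E518K (9.15 ± 0.57, adjusted p = 2.4e-48). miR-20b-5p showed the largest fitted rise of all miRNAs with non-overlapping groups and 100 CPM, with 0 counts in every KO library and 2869, 3640.4 and 2155 CPM in E518K, at least 176-fold above the floor. Its wild-type libraries, at 2472, 4018 and 4437 CPM, overlapped the E518K clones (adjusted p = 0.43). miR-363-3p of the same X-chromosomal cluster was at least 111-fold above the floor, with 1951, 1466 and 2027 CPM in E518K. The 6 tested miRNAs with the seed AAAGUGC in that table, all of these 3 clusters, were all higher and summed to 44.7 CPM in KO, 28825 CPM in E518K and 24435 CPM in wild type. The 6 in it with the seed AUUGCAC, to which miR-92a-3p and miR-363-3p belong, were likewise all higher, from 179 to 33529 CPM.

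The 2 highest mean levels over the E518K clones belonged to members of the miR-183-96-182 cluster, known from sensory cells and from the maintenance of stem cells. All 6 tested members were higher than in KO, against 41.9% of all 730, with a median change of 8.35 (7.59 with 2 KO zeros at their bounds). miR-183-5p stood at 343, 511 and 619.6 CPM in KO, 147298, 107955 and 191152 CPM in E518K and 37790.4, 46761 and 29409.9 CPM in wild type. It rose over KO by 8.25 ± 0.56 (adjusted p = 4e-42) and exceeded wild type by 1.97 (adjusted p = 1.1e-05), and the 3 groups did not overlap. miR-182-5p stood at 499.1, 625 and 955 CPM in KO and 137094, 118719 and 189695 CPM in E518K (7.74 ± 0.55, adjusted p = 5.7e-39). With the DGCR8-independent list held constant 12 of 730 miRNAs were higher and 498 lower in E518K than in wild type, so that levels above wild type are to be read relative to the other miRNAs of a library.

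Let-7 miRNAs, which accompany differentiation and whose maturation LIN28 blocks in stem cells, held a larger share of the counts in E518K than in KO. Of 13 tested members 10 were higher, against 41.9% of all 730, and 3 did not pass. The median change was 3.31 (1.60 with 3 KO zeros at their bounds). let-7f-5p stood at 3381, 4748 and 4978 CPM in KO, 50726, 33925 and 45147 CPM in E518K and 3317, 11359.6 and 3368 CPM in wild type (E518K against KO 3.31 ± 0.43, adjusted p = 2.4e-13). let-7a-5p stood at 337, 595 and 689.8 CPM in KO and 22780.5, 15588 and 13562 CPM in E518K (5.00 ± 0.46, adjusted p = 2.4e-24). By TMM this was 1279.9% of its wild-type mean, the highest of all 195 miRNAs that were expressed in wild type and raised there over KO. The family held 1.89% ± 0.294 of the counts in KO, 7.06% ± 1.15 in E518K and 0.904% ± 0.502 in wild type. The 3 members that did not pass, let-7b-5p, let-7c-5p and let-7e-5p, had differences of -0.26, 0.68 and -0.26, while with the DGCR8-independent list or the authors' constants all 13 were higher.

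Other families with many targets followed the same course to differing degrees. miR-148a-3p, a miRNA of the miR-130, miR-301, miR-148 and miR-152 group of which 11 of 14 members were higher, rose from 262, 465 and 509.7 CPM to 60249, 45638 and 116085 CPM (7.49 ± 0.54, adjusted p = 3.1e-38). Among its clones the highest level was that of clone 15. miR-7a-5p rose from 311, 571 and 525 CPM to 75170.4, 43036 and 83572 CPM (7.17 ± 0.54, adjusted p = 1.9e-35), below the 142177 to 262648 CPM of wild type. miR-101a-3p rose from 51.2, 150.1 and 272 CPM to 35822, 33983 and 34082 CPM (7.80 ± 0.53, adjusted p = 2.1e-41), by TMM above the 8391 to 11535 CPM of wild type. Of the miR-30 family 10 of 12, of the miR-200 family 6 of 7, of miR-26 and miR-29 5 of 8 and of miR-7 3 of 4 tested members were higher, and none was lower, against 41.9% higher and 26.2% lower over all 730.

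Of 3 further groups some members were higher and 1 each was lower, against 41.9% higher and 26.2% lower over all 730. Of miR-15 and miR-16 members 7 of 14 were higher and 1 lower, of the miR-23, miR-27 and miR-24 group 6 of 10 were higher and 1 lower, and of miR-21, miR-22, miR-221 and miR-222 3 of 8 were higher and 1 lower. miR-222-3p rose from 64.0, 78.1 and 67.2 CPM to 698, 599.8 and 592 CPM (3.18 ± 0.45, adjusted p = 1.1e-11). miR-21a-5p, a miRNA of growth and stress responses, stood at 20855, 34663 and 29898 CPM in KO and 5523, 2561 and 7142 CPM in E518K, lower by 2.49 ± 0.41 with TMM (adjusted p = 1e-08) but at 0.01 with the list and -0.78 with the authors' constants, neither of which passed. It held 5.80% ± 1.12 of the KO counts and 0.421% ± 0.112 of those in E518K.

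Of 2 large imprinted clusters most tested members were called higher in E518K. The Dlk1-Dio3 domain on chromosome 12, active from the maternal allele, had 86 tested members, 80 with same-read miRNAs counted once. Of the 86, 68 were higher in E518K, 2 lower and 16 not called, against 41.9% higher and 26.2% lower over all 730. The median change was 6.88. It was 4.36 with members absent from KO at their bounds where the E518K mean exceeded what a KO zero allows. The rest of these 57 kept their fitted change. Among those called higher, miR-758-3p and miR-673-5p had no KO count and E518K means of 9.94 and 4.20 CPM. These lie below the 12.8 to 18.3 CPM that a KO zero allows, so their rise is not established. The Sfmbt2 cluster on chromosome 2 had 19 of 27 higher and none lower, against the same shares over all 730. Of its members called higher, miR-669e-5p had no KO count and an E518K mean of 3.56 CPM, so its rise is not established either. miR-541-5p of Dlk1-Dio3 rose from 0, 6.01 and 15.3 CPM to 5333, 2231 and 4708 CPM (9.31 ± 0.60, adjusted p = 5e-45), overlapping the 4712 to 5566 CPM of wild type. miR-669c-5p of Sfmbt2 rose from 32.0, 18.02 and 42.7 CPM to 3684, 3019 and 2008 CPM (6.55 ± 0.50, adjusted p = 2.4e-34).

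Members of the Dlk1-Dio3 domain differed among themselves in the level they regained. Of 46 members expressed in wild type and raised there over KO, 16 stood below 10% of the wild-type level in E518K and 10 above 100%, the median being 24.9% against 45.3% over all 195 such miRNAs. 29 of the 46 were lower than in wild type by the test and 4 were higher. Examples chosen after their values were seen are miR-379-5p, at 173, 84.0 and 219.7 CPM in E518K against 9418, 6054 and 6341 CPM in wild type, and miR-134-5p, at 11.8, 4.99 and 11.1 CPM against 2123, 1209 and 1664 CPM. Both were called higher than KO, where miR-379-5p had 2.13, 0 and 6.10 CPM and miR-134-5p no count. A KO count of 0 allows up to 12.8 to 18.3 CPM, above the E518K levels of miR-134-5p, so its rise is not established. miR-409-3p of the same domain rose to 9663, 3768 and 7274 CPM, by TMM above the 2023 to 3095 CPM of wild type.

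**Figure D3:**
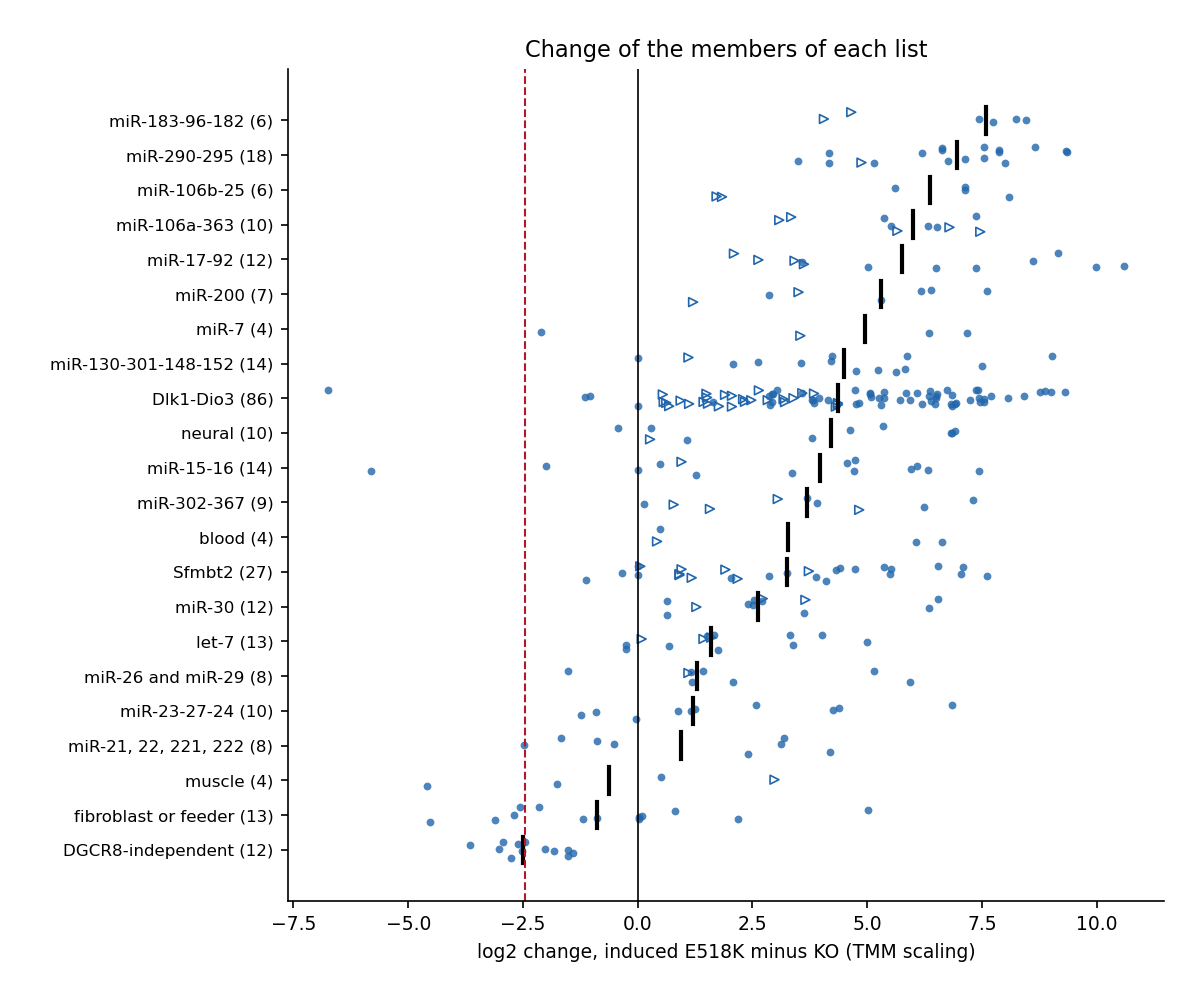
Log2 change between induced E518K and KO under TMM scaling (horizontal) for the tested members of each list (vertical, number tested in brackets), with the median of the plotted values as a black bar and vertical scatter added only for legibility. Open triangles are lower bounds for miRNAs without a KO count whose E518K mean lay above the level that a KO zero allows on average. Those below it are drawn as filled points at their fitted change, and such a rise is not established. The red dashed line is set by the median shift with the DGCR8-independent list over miRNAs with a count in every library. It shows about where no change lies for these if the list is held constant. The medians of the stem cell clusters lie far to the right of both lines.

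Against wild type the levels in E518K ran from 0.558% for miR-134-5p, which lay below the KO limit of detection, to 1279.9% for let-7a-5p. Of the 195 miRNAs at 100 CPM or more in wild type and higher there than in KO, 26 stood below 5% of the wild-type level in E518K, 18 from 5% to 10%, 58 from 10% to 50%, 35 from 50% to 100%, 40 from 100% to 200% and 18 above 200%. By the test 108 of the 195 were lower than in wild type and 21 higher. These levels and calls are by TMM, and with the list held constant 1.64% of all 730 were higher and 68.2% lower in E518K than in wild type. Called higher over KO were 166 of the 195, which is 85.1%; this share is set by TMM and was 188 of 195 with the list.

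The other 29 of the 195 were not called higher and are here described as near the KO level, 22 of them not called and 7 lower. All 22 were called higher with the list and 19 of them with the authors' constants. Their median stood at 4.71% of the wild-type level, against 55.4% for the 166 that were higher, and 19 lay below 10%. 8 of the 29 belong to sets that count the same reads. How many miRNAs stay near KO varied with the scaling and with single libraries. Defined anew from each scaling's own calls in wild type and in E518K, the number was 12 with the list and 12 with the authors' constants; by TMM it was 15 when wild-type clone 16 was left out and 16 when E518K clone 15 was. Of the 29, 7 were not called higher under TMM, list and authors' constants alike.

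The most abundant of them in wild type was miR-140-3p, a miRNA of cartilage whose hairpin lies in an intron of Wwp2. It stood at 505, 1072 and 821 CPM in KO, 719, 406 and 808 CPM in E518K and 3971, 3457 and 3435 CPM in wild type. E518K and KO libraries overlapped, and their difference of -0.31 had a 95% interval from -1.05 to 0.43; with the list it was 2.20 and with the authors' constants 1.44, both called higher. Its other arm, miR-140-5p, had a difference of 1.09 (interval -0.07 to 2.26). miR-378a-3p, from an intron of Ppargc1b, stood at 89.6, 102 and 122 CPM in KO, 151, 94.0 and 154 CPM in E518K and 3354, 2701 and 2416 CPM in wild type. Its difference from KO was 0.35 (interval -0.44 to 1.15), and it passed the test as higher with the list (2.80), the authors' constants (2.11), and without KO library 1 (0.97) or E518K clone 15 (1.06).

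Both arms of miR-151, whose hairpin lies in an intron of Ptk2, the gene of focal adhesion kinase, were not called higher than KO under any of the 3 scalings. miR-151-3p stood at 300.7, 504 and 213.7 CPM in KO, 53.0, 36.6 and 58.4 CPM in E518K and 2773, 2040.1 and 1645 CPM in wild type. All E518K clones lay below all KO libraries (-2.78 ± 0.42, adjusted p = 2.3e-10), with the list the difference was -0.34 and did not pass, and with the authors' constants it was -1.03 and did. miR-151-5p stood at 11.5 CPM on average in KO, 2.22 CPM in E518K and 201 CPM in wild type. miR-532-5p, from an intron of Clcn5 with 3 other hairpins within 10 kb, stood at 309, 432 and 311 CPM in KO, 97.5, 44.9 and 89.7 CPM in E518K and 1025, 1023 and 602 CPM in wild type (-2.18 ± 0.41, adjusted p = 5e-07; 0.27 with the list, not passed). The others not called higher under any of the 3 scalings were miR-674-3p, miR-1198-5p, miR-374b-5p and miR-374c-3p, the last 2 counting the same reads.

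miR-872-5p, from an intron of Ift74, stood at 4.27, 18.02 and 12.2 CPM in KO, 22.9, 17.5 and 16.1 CPM in E518K and 695, 1010.3 and 834 CPM in wild type. The KO values come from few counts, and the difference of 0.80 had an interval from -0.38 to 1.97, while with the list (3.21) and the authors' constants (2.57) it passed as higher. miR-192-5p, a miRNA of gut and kidney, stood at 25.6, 9.01 and 30.5 CPM in KO, 14.4, 6.66 and 8.06 CPM in E518K and 735, 736 and 481 CPM in wild type, 1.49% of the wild-type mean remaining. Its difference from KO was -1.14 (interval -2.24 to -0.04, adjusted p = 0.061), and with the list it was 1.24 and passed as higher. miR-218-5p, from an intron of Slit2, overlapped KO (0.50, interval -0.41 to 1.40; 2.95 with the list and 2.36 with the authors' constants, both called higher) and stood at 56.3, 88.2 and 56.4 CPM in E518K against 381, 375 and 443 CPM in wild type. miR-30e-3p, which counts the same reads as miR-30f, and miR-196a-1-3p reached 6.05% and 0.827% of wild type. miR-196a-5p of the same family, named after its values were seen, was called higher than KO (2.19 ± 0.76, adjusted p = 0.0066) but stood at 32.7, 6.66 and 8.06 CPM in E518K against 1551, 2574 and 2078 CPM in wild type.

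**Figure D4:**
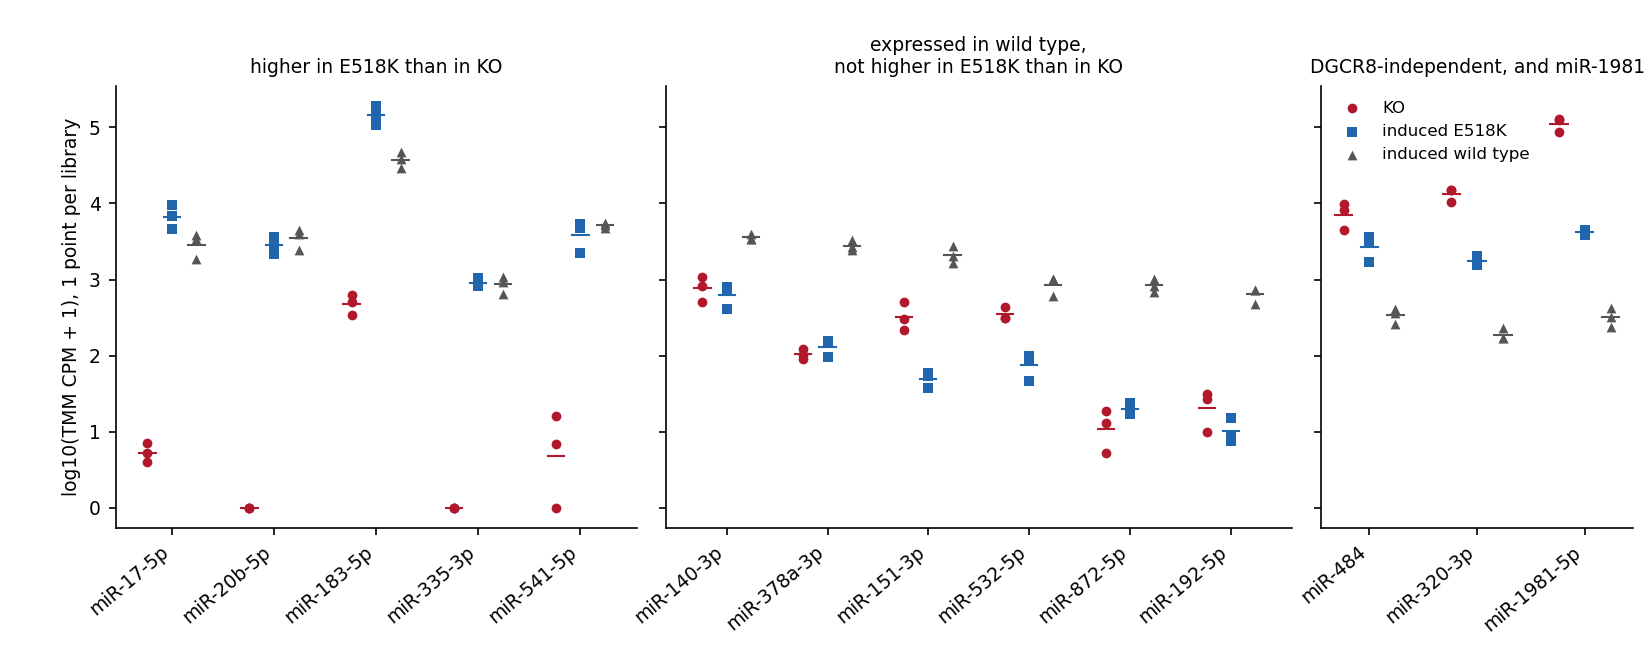
TMM CPM of single libraries as log10(CPM + 1) on the vertical axis for chosen miRNAs on the horizontal axis, with circles for KO, squares for induced E518K, triangles for induced wild type and bars for the mean of 3. In the left panel E518K sits with or above wild type, in the middle panel it sits with or below KO, and in the right panel it sits between KO and wild type.

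The DGCR8-independent list held 15.5% ± 2.78 of the counts in KO, 1.24% ± 0.369 in E518K and 0.136% ± 0.0392 in wild type. Of its 12 tested members 10 were lower in E518K with TMM and none was higher, against 26.2% lower and 41.9% higher over all 730. The median change was -2.49. With the authors' constants 3 were lower, and with the list itself none was lower and 1, miR-484, was higher. miR-484, whose hairpin starts at the cap of its transcript, stood at 4475, 8174 and 9856 CPM in KO and 3139.8, 3569.7 and 1706 CPM in E518K (-1.42 ± 0.38, adjusted p = 0.00049; 1.08 with the list, 0.49 with the authors' constants). miR-320-3p stood at 10592, 14838 and 15024 CPM in KO and 2021, 1695 and 1536 CPM in E518K (-2.94 ± 0.41, adjusted p = 5.8e-12; -0.48 with the list, not passed). The 2 arms of the mirtron miR-877 differed in their spread: miR-877-5p stood at 359, 304 and 532 CPM in E518K, and miR-877-3p at 109, 1159 and 2153 CPM, clone 8 being the lowest. In KO they stood at 2019.8, 4327 and 3348 CPM and at 11793, 15646 and 15350.2 CPM.

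Other abundant miRNAs of KO fell as well. The 2 most abundant in KO were miR-5099, at 141554, 147239 and 132698 CPM in KO and 6109, 2926 and 11361 CPM in E518K (-4.37 ± 0.46, adjusted p = 4.2e-19), and miR-1981-5p, at 122979, 86164 and 129273 CPM in KO and 4205, 3830.0 and 4461 CPM in E518K (-4.76 ± 0.47, adjusted p = 9.1e-22). Both were also lower with the list, by 1.93 and 2.36, and with the authors' constants. miR-10a-5p, a miRNA of the Hox clusters, stood at 866, 1219 and 650.1 CPM in KO and 29.5, 8.32 and 54.4 CPM in E518K, the largest fall by the naming rule (-4.90 ± 0.48, adjusted p = 9.8e-22; -2.46 with the list). miR-100-5p, whose seed differs from that of miR-10a-5p, stood at 1431, 2144 and 1587 CPM in KO and 82.5, 33.3 and 91.7 CPM in E518K (-4.64 ± 0.44, adjusted p = 6.1e-23; -2.17 with the list). All 10 of the largest falls were lower with the list too. The others were miR-344d-3p, miR-3569-5p, miR-7655-3p, miR-6932-5p, miR-6979-3p and miR-1843b-3p. Their falls by TMM lay between those of miR-10a-5p and miR-1843b-3p, the latter at -4.16 ± 0.45.

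4 hairpins show the kinds of precursor compared, from RefSeq on GRCm38.p6, with the mature arms in capitals. Mir20b (chrX:52742113-52742192, minus strand), outside any intron, was restored. The 5p arm of Mir872 (chr4:94665157-94665237, plus strand) stayed near KO by TMM only, as it was called higher with the list (3.21) and the authors' constants (2.57). Mir877 (chr17:35960730-35960814, minus strand) and Mir1981 (chr1:184822407-184822488, minus strand) each fill a whole intron, of Abcf1 (85 bases) and of Marc2 (82 bases).
Mir20b: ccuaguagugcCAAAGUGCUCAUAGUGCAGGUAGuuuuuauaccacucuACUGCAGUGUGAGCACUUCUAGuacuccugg
Mir872: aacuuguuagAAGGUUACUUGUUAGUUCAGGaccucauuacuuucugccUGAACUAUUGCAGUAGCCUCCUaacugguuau
Mir877: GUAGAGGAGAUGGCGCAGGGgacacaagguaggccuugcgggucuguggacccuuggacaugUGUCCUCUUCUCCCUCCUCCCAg
Mir1981: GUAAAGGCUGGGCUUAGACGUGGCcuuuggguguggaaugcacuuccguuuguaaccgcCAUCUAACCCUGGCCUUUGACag
In Mir877 and Mir1981 the 5p arm starts at the first base of the hairpin, as a spliced intron does, while both arms of Mir20b and Mir872 are flanked by further bases.

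The place of the hairpin went with the call. Hairpins of 723 of the 730 miRNAs could be placed, by RefSeq and GENCODE gene records. Of the 324 miRNAs with another hairpin within 10 kb 64.2% were higher and 9.57% lower in E518K, and of the 399 without one 24.1% were higher and 39.6% lower. Of the 50 in an intron of at most 200 bases, a feature looked at after the values were seen, 1 was higher, 14 were not called and 35 were lower. The 1 was let-7i-5p, annotated in an intron of 116 bases of D630033A02Rik, at 2099, 3504 and 2949 CPM in KO and 8353, 6621 and 13586 CPM in E518K (1.74 ± 0.39, adjusted p = 3.1e-05). Without the members of the DGCR8-independent list 31 of 45 such miRNAs were lower, and with the list held constant 3 of the 50 were lower and 7 higher. Of 351 in longer introns 134 were higher and 101 lower, and of 322 outside introns 169 were higher and 53 lower. These shares are descriptions: hairpins of a cluster share a transcript and the 2 arms share a hairpin.

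**Figure D5:**
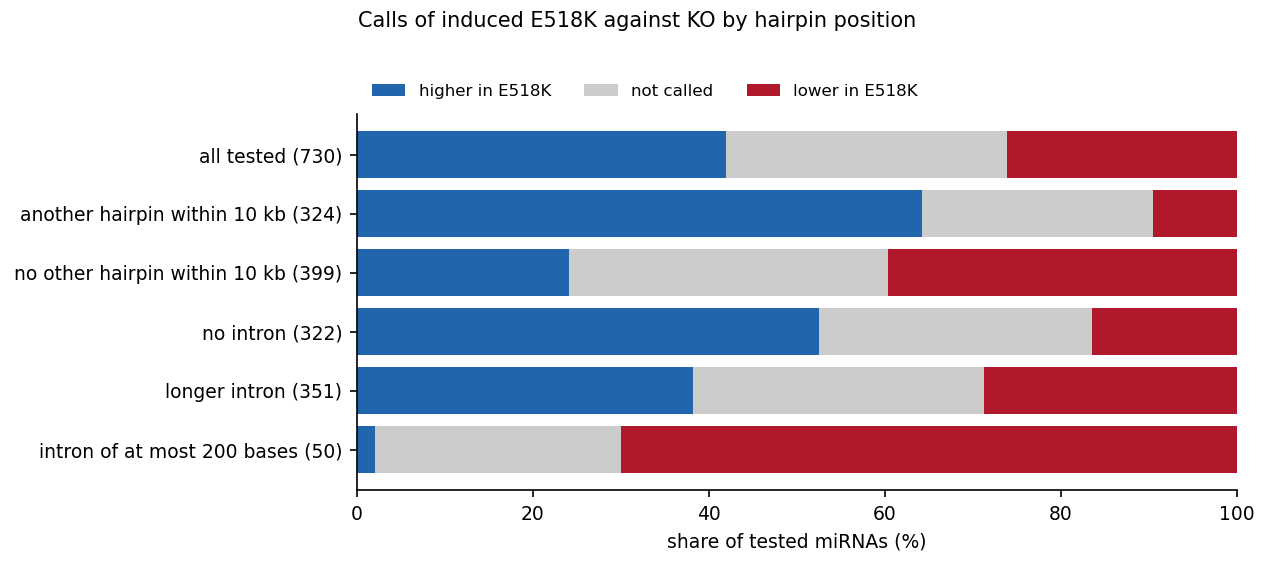
Share of tested miRNAs (horizontal, percent) called higher (blue), not called (grey) or lower (red) in induced E518K against KO, by the position of their hairpin (vertical, number of miRNAs in brackets). The bar for introns of at most 200 bases is 70% red and that for hairpins with a neighbour within 10 kb 64.2% blue, against 26.2% red and 41.9% blue over all 730.

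The 2 arms had the same call in most of the 167 hairpins of which both were tested. Both arms were higher for 74, both lower for 26 and neither called for 19, against 41.9% higher and 26.2% lower over all 730 miRNAs. Only the 5p arm was higher for 17 and lower for 9, and only the 3p arm was higher for 13 and lower for 9. For none was 1 arm called higher and the other lower. Fitted changes of some pairs had opposite signs, such as -2.57 and 5.02 for the 5p and 3p arms of Mir145a and 4.72 and -5.81 for those of Mir497. The arms with positive changes, miR-145a-3p and miR-497a-5p, had no KO count and were not called. miR-145a-3p stood at 2.42 CPM in E518K, below what a KO zero allows. Opposite changes of the arms are thus not established.

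The hairpin Mir1306 lies within Dgcr8, the gene of the protein itself. miR-1306-3p had 1, 0 and 0 counts in KO against levels of 27.5, 63.2 and 16.1 CPM in E518K and was called higher (adjusted p = 1.5e-06), and miR-1306-5p had a count in only 1 of the 6 libraries, that of E518K clone 13.

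Markers of other cell types were read beside these results, and their part in them was not tested. The fibroblast or feeder list had 5 of 13 tested members lower and 1 higher in E518K, against 26.2% lower and 41.9% higher over all 730. Its median was -0.90, and its summed level was 6857 to 10892 CPM in KO, 2460 to 3544 CPM in E518K and 6530 to 7797 CPM in wild type. With the list scaling none of the 13 was lower and 7 were higher. Its most abundant member in KO was miR-143-3p, at 3805, 5471 and 4456 CPM there and 551, 320.3 and 724 CPM in E518K (-3.11 ± 0.40, adjusted p = 2.4e-13). miR-199a-3p had a difference of 0.02 (interval -0.72 to 0.76). Of the neural list 6 of 10, of the blood list 3 of 4 and of the muscle list 1 of 4 tested members were higher, against 41.9% of all 730. None of the neural and blood lists was lower, and 1 of the muscle list was, miR-206-3p (-4.60, lower with each of the 3 scalings), against 26.2% of all 730. In the order neural, blood and muscle, the lists had summed levels in KO of 93.8 to 132 CPM, 30.5 to 99.1 CPM and 51.2 to 162 CPM, in E518K of 1214 to 1924 CPM, 342 to 466 CPM and 150.1 to 163 CPM, and in wild type of 3953 to 5213 CPM, 198 to 399.6 CPM and 345 to 629.8 CPM. In KO miR-138-5p, miR-9-3p, miR-219a-2-3p, miR-128-1-5p, miR-124-3p, miR-150-3p, miR-499-5p and miR-145a-3p of these 4 lists were at 0. The liver marker miR-122-5p stood at 74.1 CPM on average in KO and 12.9 CPM in E518K.

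In the untreated library of E518K clone 8 the miR-183-96-182 cluster held 18.3% of the counts (exact 95% interval 18.1% to 18.5%, counting error only) and miR-290 2.51%, each between KO and the same clone after induction. The DGCR8-independent list held 16.0%, and the miR-30 family (0.344%) and the miR-23, miR-27 and miR-24 group (0.254%) lay within the range of the KO libraries.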

How the data were processed

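Small RNA libraries (NEBNext Multiplex Small RNA kit, total RNA) were read from 2 deposited tables of 1966 mature miRNAs in 11 libraries. The authors deposited read counts, not normalized, and RPM values called pRPM in the file name. STAR, bedtools and GRCm38.p6 are named in the submitters' processing notes; no label or header gives the counting rule, the use of strand or the trimming. The deposited RPM values were whole multiples of what 1 read is worth: 100% gave whole reads within 0.01 reads and these equalled the counts, so the count test on them is the same test, with 306 miRNAs higher and 191 lower. The RPM totals are 85006 in each KO library, 683476 in induced E518K and 938495 in induced wild type; no label or header gives the origin of these constants. A deposited table named for piRNAs is identical to the RPM table and was not used here.

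Groups came from sample titles. edgeR 4.0.16 (R 4.3.3) was fitted robustly over all 11 libraries in 5 groups with TMM scaling and filterByExpr (minimum count 10, minimum total 15), and p-values were adjusted by Benjamini-Hochberg over 730 miRNAs; adjusted p-values are edgeR's. The standard error is the log2 change divided by the square root of F. E518K and wild-type libraries are of separate clones, but the KO titles name 1 clone, so for KO the p-values measure only the spread between these libraries, which may be technical. KO pairs differed by a chi-square of 12.2 to 24.1 per degree of freedom and E518K pairs by 46.5 to 114, so none was taken for 1 library listed 2 times. Counts from 1 to 40 were even in 90.3% of cases, which fits 2 counts for most small RNAs, and the floor of 3 small RNAs was set at 6 counts per library; it and the intervals of shares cover counting error only. 33 sets of 66 miRNAs have the same counts within 2%. Hairpin positions come from RefSeq and GENCODE; 589 of 730 miRNAs (80.7%) are in the RefSeq sequence table. Alternatives were other scalings (with DESeq2 1.42.0 size factors), the DESeq2 test, other filters, a threshold of 1 on the log2 change (glmTreat), halved or merged counts and leaving out libraries. The script was tested on simulated data.

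Named miRNAs are the 12 highest in E518K, the 10 largest changes each way that passed, did not overlap and reached 100 CPM, the 10 near KO highest in wild type, all DGCR8-independent members, the 2 highest in E518K of each other list with 3 or more tested members and miR-1306. Members, lists and rules were chosen with earlier results of these data known.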

Additional observations from a re-analysis of the deposited data

Results flagged for a closer look

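One library outside the 2 groups compared, E518K clone 8 without doxycycline, showed 13 of 23 lists above the level of every KO library. It is a single library, so no difference between groups was tested. The lower end of the exact 95% interval of each of the following shares of its miRNA counts lay above the highest KO library. The miR-183-96-182 cluster held 18.3% (26.1% ± 1.33 after induction, 0.243% ± 0.0607 in KO), the group of miR-130, miR-301, miR-148 and miR-152 held 2.79%, the let-7 family 2.52%, the miR-290 cluster 2.51% (29.3% ± 3.06 after induction) and the miR-7 family 1.34%. The Dlk1-Dio3 domain held 0.674%, miR-26 and miR-29 held 0.284%, the miR-17-92 cluster 0.251%, the miR-15 and miR-16 family 0.225% and the Sfmbt2 cluster 0.165%. The miR-106b-25 cluster held 0.105%, the neural list 0.0529% and the miR-106a-363 cluster 0.00983%. For the other 10 lists this was not so. Among them the miR-302 cluster held 0.00416% and the miR-200 family 0.00378%, with intervals that reached below the highest KO library. The miR-30 family (0.344%), the miR-23, miR-27 and miR-24 group (0.254%) and the blood (0.0106%), muscle (0.0155%) and liver (0.0121%) lists lay within the KO range. The group of miR-21, miR-22, miR-221 and miR-222 (3.68%) and the fibroblast or feeder list (1.12%) lay below every KO library, and the DGCR8-independent list held 16.0%.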

How the results depend on the processing

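The KO totals set the limit: a miRNA without a KO count could have had up to 12.8 to 18.3 CPM there, and a change can only be given as a bound. Counts of lower calls and of miRNAs near KO moved with the scaling and with single libraries. Against 41.9% of tested miRNAs higher and 26.2% lower than KO, the share lower was 4.11% with the DGCR8-independent list and with the list without its most abundant member, 8.36% with the authors' constants and 21% with halved counts, where 126 of 600 were lower. It went the other way, to 34.1%, with library totals (34.2% higher) and to 27.4% with DESeq2 size factors. Against wild type, 28.2% higher and 35.3% lower became 1.64% and 68.2% with the list and 0.822% and 70.3% with the list without its most abundant member, and 31.7% (163 of 514) were lower with a minimum count of 50, where fewer miRNAs were tested. The number near KO, 29 by TMM, was 12 with the list and 12 with the authors' constants when defined from the calls of that scaling (of the 29 themselves 7 were not higher with the list), 73 with a minimum of 20 CPM and 8 with one of 500 CPM. Leaving out 1 library at a time gave 34.6% to 48.3% higher and 17.5% to 29.3% lower against KO, 20.9% to 36.3% higher and 23.8% to 32.5% lower against wild type, and 15 to 35 near KO. The lowest values of these were without E518K clone 15 (17.5%) and without wild-type clone 16 (23.8% and 15). The cause of the other shifts was not tested.

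Of 86 named miRNAs 57 kept direction and side of the threshold in every setting. The sign turned to positive with the list, the list without its most abundant member and the authors' constants, in this order, for miR-1224-5p (0.92, 0.90, 0.16), miR-702-3p (0.90, 0.86, 0.32), miR-199a-5p (1.29, 1.26, 0.57), miR-484 (1.08, 1.03, 0.49), miR-192-5p (1.24, 1.21, 0.61) and miR-140-3p (2.20, 2.18, 1.44). With the first 2 of these it turned for miR-1839-3p (0.090, 0.062), miR-702-5p (0.62, 0.59), miR-532-5p (0.27, 0.24) and miR-1983 (0.48, 0.43), and with the list alone for miR-21a-5p (0.010). miR-140-3p was at 0.57 with halved and 0.65 with merged counts. With library totals the sign turned to negative for miR-378a-3p (-0.90), miR-218-5p (-0.65), miR-1a-3p (-0.74), miR-30f and miR-30e-3p (-0.63 each), miR-872-5p (-0.41), miR-196a-1-3p (-1.14) and miR-199a-3p (-1.14). The last 2 were at -0.10 and -0.11 with DESeq2 size factors, -0.10 and -0.11 with the DESeq2 test, -0.044 and -0.050 without a filter and -0.088 and -0.10 with a minimum count of 50. Without 1 library the sign turned for miRNAs that had not passed: miR-140-3p ranged from -0.94 to 0.29, miR-378a-3p from -0.46 to 1.06, miR-196a-1-3p from -0.40 to 0.55, miR-199a-3p from -0.67 to 0.96, miR-218-5p from -0.61 to 1.51, miR-1a-3p from -0.77 to 1.46, miR-30f and miR-30e-3p from -0.41 to 1.41 and miR-1306-5p from 0 to 5.51.

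No paired analysis was possible because KO libraries 1 to 3 and E518K clones 8, 13 and 15 share no replicate number.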
